A study of Mus musculus with 2 samples.

Results

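The genes described here are 44 genes used as markers of astrocytes or known for their work in these cells, taken from a fixed list of symbols and followed by gene identifier through every deposited table. All 44 were found among 55536 annotated genes, of which 22015 are nuclear protein-coding genes. The series holds total RNA-seq of left cerebral cortex tissue, 1 library for each of 2 mice, both female, of the strain B6CASTF1/J and aged 36 days. B6CASTF1/J mice are F1 hybrids between C57BL/6J and CAST/EiJ, and no treatment or transgene is named in the labels. Both libraries belong to 1 group, so the data hold no contrast of conditions, and differences between the mice have no replicate check. Each library is labelled with its own animal, although 1 donor record is shared, and the tissue is a bulk piece of cortex that holds neurons, other glia and vessels as well as astrocytes.

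Astrocytes are glial cells that fill the space between neurons and wrap synapses and blood vessels. They clear glutamate and GABA released at synapses, turn glutamate into glutamine, buffer water and potassium through channels and gap junctions, store glycogen, and secrete proteins that steer the formation and removal of synapses. Several of the 44 genes are also used by other cells of the cortex, among them Glul and S100b in oligodendrocytes, Clu in neurons, Vim and Sparc in vessels and Mertk in microglia. In bulk tissue, fewer cells of a type and less RNA per cell cannot be told apart, and a level cannot be assigned to one cell type.

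All 44 genes were expressed, meaning a TPM of at least 1 in both mice. TPM is a share of all transcripts in the library, corrected for length, and levels are compared between genes on that scale alone. The median TPM of the 44 genes was 28.5 in replicate 1 and 26.6 in replicate 2, or 27.6 ± 1.31 (SD, n = 2). The median of the 12754 expressed nuclear protein-coding genes was 15.3 TPM, and 31 of the 44 genes lay above it. In mean TPM, 6 genes stood at 100 or more, 29 between 10 and 100, and 9 below 10. The 44 genes held 0.980% of the protein-coding TPM in replicate 1 and 0.976% in replicate 2. The top of the order was steep: Glul, Slc1a2, Sparcl1 and Clu together took 65.0% of the TPM of the 44 genes in replicate 1 and 63.6% in replicate 2. Ranked by mean TPM, neighbours had ranges that did not overlap in 16 of 43 steps, and those steps include each one from Sparcl1 down to Htra1. The range of Slc1a2 overlapped those of Glul and Sparcl1, although each mouse gave the order Glul, Slc1a2, Sparcl1, and Glul and Sparcl1 did not overlap. In the run from Hepacam down to Tril every pair of neighbours overlapped, while Hepacam and Tril, at its ends, did not.

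**Figure D1:**
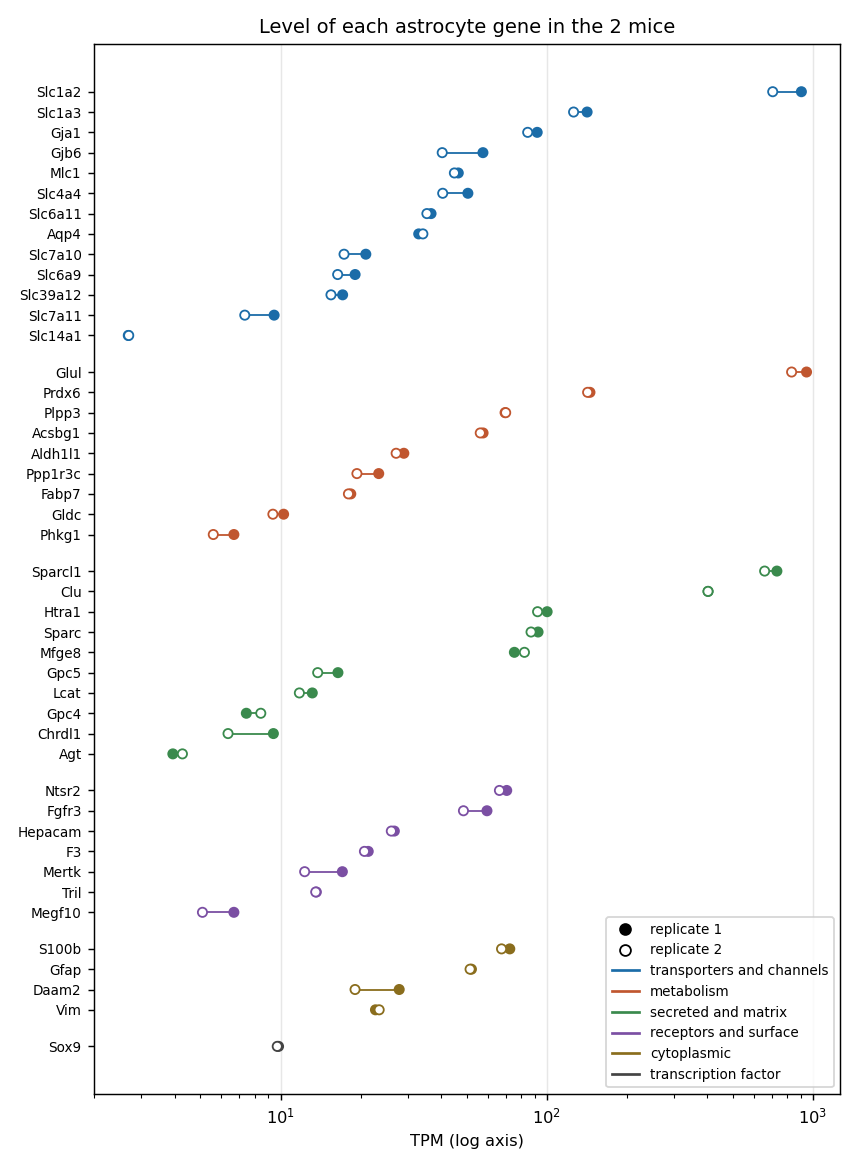
TPM (log axis) of each of the 44 astrocyte genes in replicate 1 (filled points) and replicate 2 (open points), grouped by role and joined by a line. The order runs from Glul at 946 and 831 TPM to Slc14a1 at 2.68 and 2.69 TPM, and the distance between the mice is small beside the distance between genes.

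The transporters and channels, 13 genes, held 31.2% of the TPM of the 44 genes in replicate 1 and 28.7% in replicate 2. Slc1a2, the main glutamate transporter of the forebrain, was measured at 905 and 706 TPM (805 ± 141, SD, n = 2), rank 22 among expressed nuclear protein-coding genes. Slc1a3, the other astrocytic glutamate transporter, reached 142 and 126 TPM (134 ± 11.1). Both transporters were higher in replicate 1 on the TPM scale, and the ratio of Slc1a2 to Slc1a3 was 6.38 in replicate 1 and 5.60 in replicate 2 (5.99 ± 0.554). That ratio was 4.61 in the second transcript table.

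Gja1, which encodes connexin 43, a gap junction protein, had 92.1 and 84.8 TPM (88.4 ± 5.13). Gjb6, which encodes connexin 30, its partner in the astrocyte network, had 57.6 and 40.5 TPM (49.0 ± 12.1). Gja1 was above Gjb6 in each mouse, by 1.60 times in replicate 1 and 2.09 times in replicate 2 (1.85 ± 0.350). The gap between the mice in TPM was wide for Gjb6, with replicate 1 the higher.

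Aqp4, the water channel of astrocyte end-feet, had 33.0 and 34.3 TPM (33.6 ± 0.856). Slc14a1, a urea transporter, was the lowest of the 44 genes, at 2.68 and 2.69 TPM (2.69 ± 0.00707) from 171 and 224 counts. The ratio of Aqp4 to Slc14a1 was 12.3 and 12.7 (12.5 ± 0.286), the widest of the pairs compared. Mlc1, a membrane protein of end-feet, had 46.5 and 44.98 TPM (45.8 ± 1.09), and its partner Hepacam, an adhesion protein, had 26.8 and 26.1 TPM (26.4 ± 0.488). Mlc1 exceeded Hepacam by close factors in both mice, 1.74 and 1.73 (1.73 ± 0.00924).

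Among transporters of inhibitory transmitters, Slc6a11, a GABA transporter, had 36.8 and 35.5 TPM (36.1 ± 0.919). Slc6a9, a glycine transporter, had 19.1 and 16.4 TPM (17.7 ± 1.89). Slc6a11 was 2.05 ± 0.166 times Slc6a9. Slc6a11 was the higher of this pair in each mouse, by 1.93 times in replicate 1 and 2.16 times in replicate 2.

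Slc7a10, a transporter of small neutral amino acids such as serine, had 20.9 and 17.3 TPM (19.1 ± 2.54), and Slc7a11, the cystine-glutamate exchanger, had 9.46 and 7.34 TPM (8.40 ± 1.499). The TPM ratio of Slc7a10 to Slc7a11 was 2.29 ± 0.106, but the ratio of their expected counts was 0.447, since the Slc7a11 transcripts are long (a mean of 7403 bases in replicate 1, against 1503 for Slc7a10). The order of this pair therefore turns with the correction for length. The remaining members were Slc4a4, a sodium bicarbonate cotransporter, at 50.6 and 40.7 TPM, and Slc39a12, a zinc importer, at 17.1 and 15.5 TPM (16.3 ± 1.16).

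The 9 metabolic genes held 28.4% and 28.9% of the TPM of the 44 genes. Glul, glutamine synthetase, was the highest of all 44 at 946 and 831 TPM (889 ± 81.0), rank 14 among expressed nuclear protein-coding genes. Glul lay just above Slc1a2, by 1.05 times in replicate 1 and 1.18 times in replicate 2 (1.11 ± 0.0933). Per length the enzyme and the transporter of the glutamate cycle were thus close, while by expected counts, uncorrected for length, Glul had 0.287 times as many as Slc1a2. The expected counts of Glul (39831.35 and 46462.93) were not whole numbers, and neither was the count of Aldh1l1 in replicate 2 (1611.93), so some of their reads were divided among genes.

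Prdx6, an antioxidant peroxiredoxin, had 145 and 142 TPM (144 ± 2.05), and Plpp3, a phosphatase of signalling lipids, had 69.7 and 70.1 TPM (69.9 ± 0.262). Acsbg1, a long-chain acyl-CoA synthetase, followed at 57.7 and 56.3 TPM. Aldh1l1, the folate enzyme often used to label astrocytes, had 29.1 and 27.2 TPM (28.1 ± 1.32). Fabp7, a fatty acid carrier shared with radial glia, had 18.4 and 18.0 TPM, and Gldc, of the glycine cleavage system, had 10.3 and 9.36 TPM. In TPM as deposited the mice lay close together for these enzymes of middle level. By counts scaled on the bulk of genes (TMM, below) all were higher in replicate 2. Their log2 ratios ran from 0.12 for Gldc to 0.25 for Plpp3. Of the glycogen genes, Ppp1r3c, which targets a phosphatase to glycogen, had 23.4 and 19.4 TPM, and Phkg1, a catalytic subunit of phosphorylase kinase, was lowest of the group at 6.68 and 5.59 TPM (6.14 ± 0.771).

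The 10 secreted and matrix genes held 31.7% and 33.5% of the TPM of the 44 genes. Sparcl1 (hevin), a matrix protein that promotes synapses, had 732 and 658 TPM (695 ± 52.1), and Sparc, its relative that opposes it, had 92.8 and 87.3 TPM (90.0 ± 3.86). Sparcl1 was 7.89 times Sparc in replicate 1 and 7.54 times in replicate 2 (7.72 ± 0.248). Clu, the chaperone and lipoprotein clusterin, had 403.7 and 403.3 TPM (403.5 ± 0.290). Htra1, a secreted serine protease, had 100.3 and 92.4 TPM (96.3 ± 5.62), and Mfge8, which bridges dying cells or debris to phagocytes, had 75.6 and 82.4 TPM.

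The glypicans, heparan sulfate proteoglycans of the cell surface, were low: Gpc5 had 16.4 and 13.8 TPM (15.1 ± 1.87) and Gpc4 had 7.44 and 8.43 TPM (7.94 ± 0.700). Their ratio was 2.21 in replicate 1 and 1.64 in replicate 2 (1.92 ± 0.405). In TPM as deposited, Gpc5 was higher in replicate 1 and Gpc4 in replicate 2. By TMM both were higher in replicate 2, with log2 ratios of 0.06 for Gpc5 and 0.42 for Gpc4. For Gpc5 the interval for counting error, -0.08 to 0.20, spanned both directions. Lcat, which esterifies cholesterol on lipoproteins, had 13.2 and 11.8 TPM. Chrdl1, an antagonist of bone morphogenetic proteins known for maturing synapses, had 9.40 and 6.35 TPM (7.88 ± 2.16). Agt, angiotensinogen, was the lowest of the group at 3.94 and 4.28 TPM (4.11 ± 0.240) from 132 and 194 counts, the thinnest counts of all 44 genes.

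The 7 receptors and surface proteins held 4.70% and 4.72% of the TPM of the 44 genes. Ntsr2, a neurotensin receptor, had 70.7 and 66.4 TPM (68.6 ± 3.06), and Fgfr3, a fibroblast growth factor receptor, had 59.6 and 48.7 TPM (54.1 ± 7.76). Hepacam, given above with Mlc1, ranked next. F3, tissue factor, which starts coagulation, had 21.4 and 20.7 TPM, and Tril, an accessory protein of Toll-like receptor signalling, had 13.6 TPM in each mouse. The phagocytic receptors were low, Mertk at 17.1 and 12.3 TPM (14.7 ± 3.36) and Megf10 at 6.68 and 5.09 TPM (5.89 ± 1.12). Both were lower in replicate 2, and their ratio stayed at 2.56 and 2.42 (2.49 ± 0.0954).

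The cytoplasmic genes were 4. S100b, a calcium-binding protein, had 72.6 and 67.6 TPM (70.1 ± 3.54), and Gfap, the intermediate filament that names the astrocyte, had 52.1 and 51.5 TPM (51.8 ± 0.431), rank 1990 among expressed nuclear protein-coding genes. Vim, vimentin, another filament protein, had 22.7 and 23.5 TPM (23.1 ± 0.523), so Gfap was 2.24 ± 0.0695 times Vim. That ratio was 2.53 in the second transcript table and 4.04 by expected counts, uncorrected for length. Daam2, a formin that acts in Wnt signalling, had 27.9 and 19.1 TPM (23.5 ± 6.27), with replicate 1 well above replicate 2. Sox9, the transcription factor that marks astrocyte nuclei, had 9.83 and 9.72 TPM (9.78 ± 0.0778), rank 8123 among the same genes.

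Gfap (chromosome 11, 102887336 to 102900912, minus strand, mm10) has a pair of coding transcripts with different ends. They share 1162 coding bases and then use different last exons. Gfap-201, of 9 exons and 430 codons, held 91.6% of the gene's TPM in replicate 1 and 92.6% in replicate 2. Gfap-202, of 8 exons and 428 codons, held 8.36% and 7.42%, and in the second transcript table the share of Gfap-202 was 13.2% as a mean of both mice. After the split, 128 coding bases follow in Gfap-201 and 122 in Gfap-202.

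Across the 44 genes, 8 had a single annotated transcript. The leading transcript, the one with the largest share of the gene's TPM, took 50% or more in each mouse for 39 genes in the first transcript table and for 38 in the second. At 75% or more the number in the first table was 29. The same transcript led in both mice for 43 genes. The exception was Chrdl1, where Chrdl1-202 (333 codons) had 37.6% and 37.0% and Chrdl1-201 (447 codons) had 28.8% and 39.4%, so the lead passed from one to the other on a small margin.

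**Figure D2:**
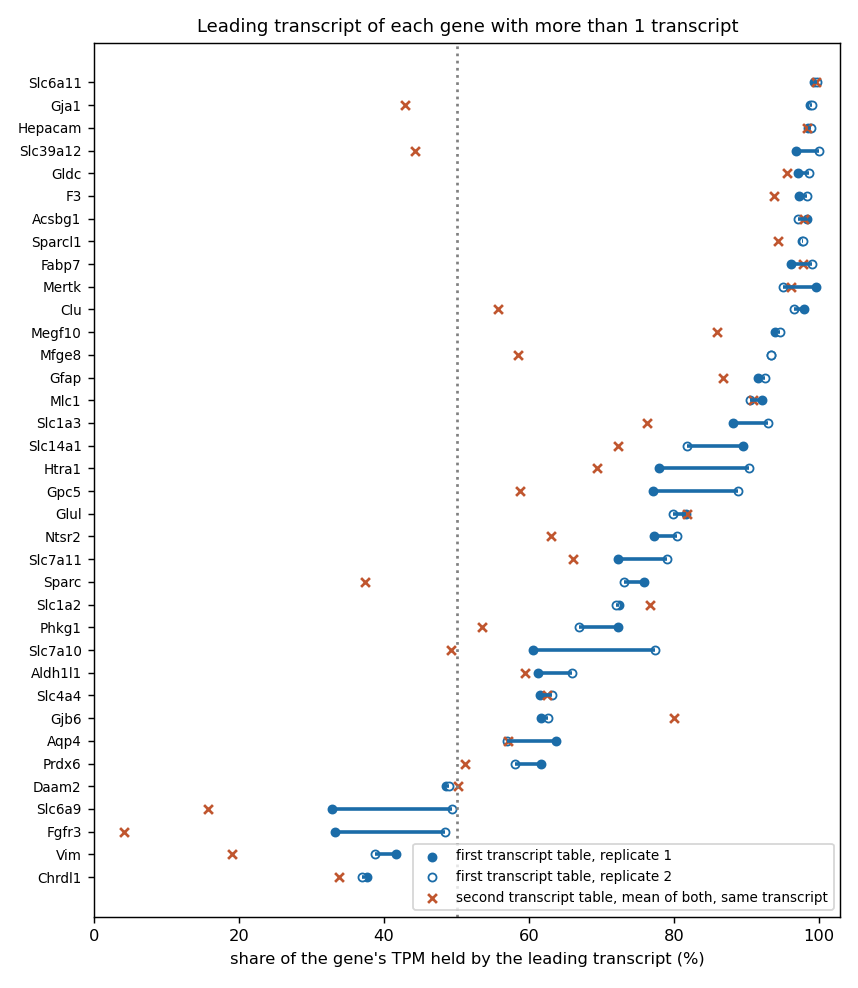
Share (%) of each gene's TPM held by its leading transcript in replicate 1 (filled points) and replicate 2 (open points) of the first transcript table, with the share of that same transcript in the second transcript table (crosses, mean of both mice), for the genes with more than 1 transcript. Most points lie right of the dotted 50% line, and crosses far to the left, as for Gja1, Slc39a12 and Fgfr3, mark genes for which the tables assigned reads to different transcripts.

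Prdx6 and Daam2 were led by transcripts that are not annotated as protein-coding. In Prdx6 (chromosome 1, 161240112 to 161251219, minus strand), Prdx6-208, annotated as a target of nonsense-mediated decay, held 61.6% and 58.0%, and transcripts of noncoding types together held 88.1% and 88.2%. The second transcript table gave 84.3% and 80.5% for that total. The full-length coding transcript Prdx6-202 (224 codons) held 10.2% and 10.4% in the first table and 0.868% in the second. The high TPM of Prdx6 is thus mostly not assigned to coding transcripts. In Daam2 (chromosome 17, 49456022 to 49564343, minus strand), Daam2-203, a retained-intron transcript, held 48.5% and 49.0%, ahead of the coding Daam2-201 (1115 codons) at 27.3% and 35.1%.

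For 6 genes the leading transcript was another one in the second table. The 6 were Gja1, Slc39a12, Fgfr3, Slc6a9, Sparc and Vim. In Gja1 the change left the protein as annotated: Gja1-201 held 98.8% and 99.1% in the first table, Gja1-206 led with 56.0% in the second, and both encode 382 codons. In Slc39a12 it did not: Slc39a12-201 (689 codons) held 96.9% and 100% in the first table, while Slc39a12-203 (73 codons) led with 55.3% in the second. Slc39a12 was also the one gene whose level differed by more than 1.5-fold between the tables once both were rescaled over nuclear protein-coding genes, at 1.81 times the first. The other 43 agreed within 1.5-fold.

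Fgfr3, with 17 transcripts, was spread widely: Fgfr3-201 held 33.3% and 48.4% in the first table and 4.05% in the second, where Fgfr3-210 led with 34.3%. Both of those transcripts have 800 codons. Slc6a9-202 held 32.8% and 49.3% in the first table, and Slc6a9-201 led with 47.9% in the second, again with equal coding length (633 codons). Sparc-202 (301 codons) held 75.9% and 73.2%, and Sparc-201 (302 codons) led the second table with 52.3%. Vim was divided between Vim-206 (427 codons, 41.6% and 38.8%), the retained-intron Vim-203 (23.7% and 35.8%) and Vim-201 (466 codons, 32.1% and 23.6%), and the second table gave Vim-201 62.4%. For these genes the tables give no single answer on which transcript led.

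Aqp4 (chromosome 18, 15389496 to 15410982, minus strand) is known for a longer and a shorter protein that differ at the start. Aqp4-201, of 323 codons, held 63.8% and 57.0%, and the shorter coding length of 301 codons was carried mainly by Aqp4-205 (20.4% and 31.0%) and Aqp4-210 (14.2% and 9.67%). The mean transcript length of Aqp4 went from 3642 bases in replicate 1 to 3370 in replicate 2 with this shift. In the second table Aqp4-205 was listed at 0 and Aqp4-202, also of 301 codons, had 22.6%. Among secreted proteins, Clu-201 (448 codons) held 98.0% and 96.7% but 55.7% in the second table, and Mfge8-202 (426 codons) held 93.4% and 93.5% but 58.5%. Htra1-201 (480 codons) went from 78.0% in replicate 1 to 90.4% in replicate 2 as the noncoding Htra1-205 went from 20.5% to 7.17%. Slc1a2-202 (chromosome 2, 102658659 to 102790784, plus strand, for the gene) held 72.4% and 72.0% and encodes 572 codons.

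Between the mice, no member of the list stood 1.5-fold apart by TMM. Ratios here are log2 of replicate 2 over replicate 1, from expected counts with TMM library sizes, a scaling on the bulk of genes, and intervals cover counting error only. With a mean count of at least 100, 0 of 44 genes were 2-fold apart, beside 0.706% of 12613 annotated genes, and 0 of 44 were 1.5-fold apart, beside 3.08%. For a list of this length, counts of 0 are near those background shares. When counts were scaled to the spike-ins instead, 6 of 44 were 1.5-fold apart, all lower in replicate 2, beside 21.0% of the same annotated genes. By TMM the ratios ran from -0.26 in Daam2, 0.833-fold, to 0.42 in Gpc4, 1.34-fold.

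The 44 genes had a median log2 ratio of 0.13, beside 0.02 for all annotated genes whose mean count was 10 or more and 0.04 for nuclear protein-coding ones. By TMM 34 genes were higher in replicate 2 and 10 lower, but 0 were higher when counts were scaled to the spike-ins and 7 on the log2(TPM + 1) scale. Of all annotated genes whose mean count was 100 or more, 58.9% were higher in replicate 2 by TMM, and of nuclear protein-coding ones 59.8%. Spike-in scaling moved the median of all annotated genes to -0.44 and log2(TPM + 1) moved it to -0.18, so the members are best read against that median. They lay above it by 0.11 in TMM, by 0.11 under spike-in scaling and by 0.07 on the log2(TPM + 1) scale, with 34, 34 and 29 of the 44 genes above it. Of nuclear protein-coding genes whose mean count was 100 or more, 55.3% lay above it in TMM, 54.6% under spike-in scaling and 48.9% on the log2(TPM + 1) scale.

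**Figure D3:**
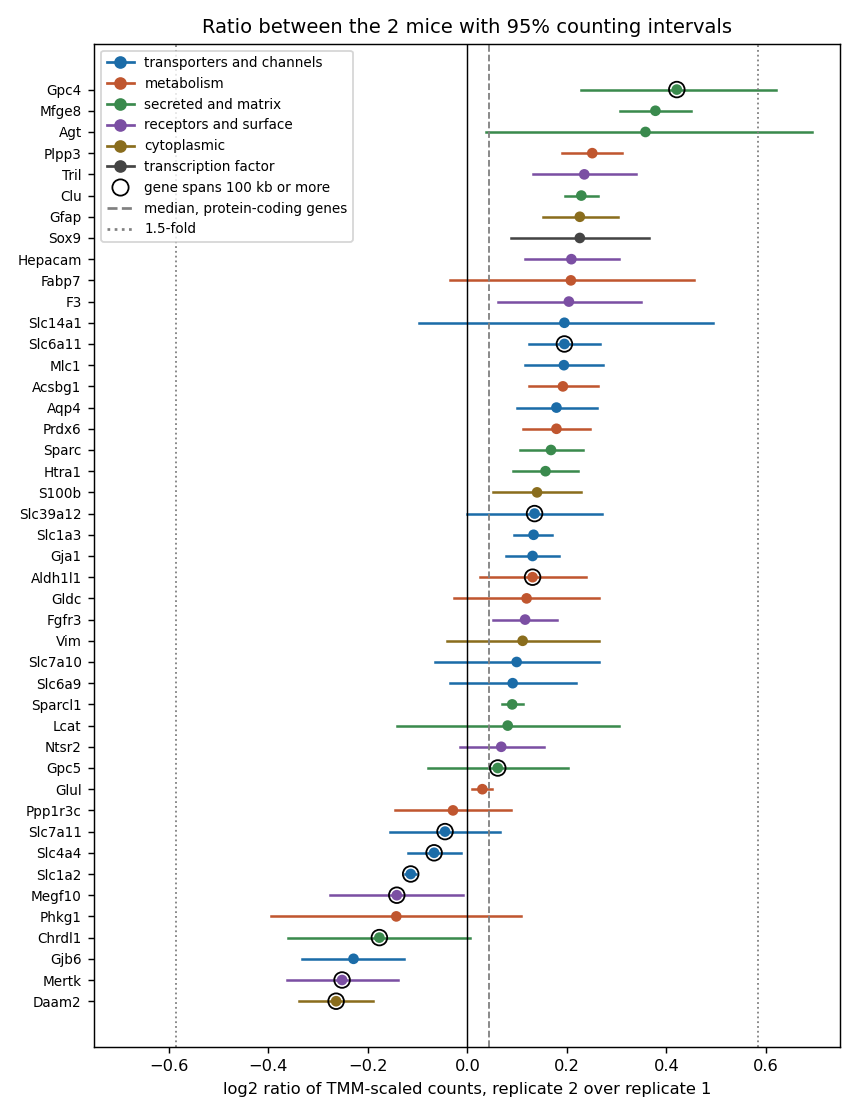
Log2 ratio of TMM-scaled counts (replicate 2 over replicate 1) of the 44 genes with 95% counting intervals, coloured by role, with rings on genes spanning 100 kb or more. The genes run from Daam2 at -0.26 to Gpc4 at 0.42, none reaches the dotted 1.5-fold lines, and the 34 genes right of 0 become 0 under spike-in scaling and 7 on the log2(TPM + 1) scale.

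The counting intervals by TMM lay above 0 for 25 genes, below 0 for 6 and across 0 for 13. Of annotated genes whose mean count was 100 or more, 29.5% had an interval above 0 and 17.5% one below 0, and of nuclear protein-coding ones 29.9% and 16.4%. Intervals narrow with depth, which was not matched between the members and those genes, and under spike-in scaling all 44 ratios were below 0. By role, 9 of 13 transporters and channels, 7 of 9 metabolic genes, 9 of 10 secreted genes, 5 of 7 receptors and surface proteins, 3 of 4 cytoplasmic genes and Sox9 were above 0 in TMM, and in each role 0 were above 0 under spike-in scaling. On the log2(TPM + 1) scale 2, 1, 3, 0, 1 and 0 genes were above 0 in the same order. The median ratio by TMM was 0.13 for transporters and channels, 0.13 for metabolic genes and 0.16 for secreted ones. It was 0.12 for receptors and surface proteins and 0.13 for cytoplasmic genes. The role groups thus lay close together.

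At the upper end, Gpc4 had 355 and 544 counts, a log2 ratio of 0.42 (95% interval 0.23 to 0.62). Mfge8 had 2640 and 3921 counts, a ratio of 0.38 (0.31 to 0.45). Agt had a ratio of 0.36 (0.04 to 0.69), with an interval as wide as its counts are few. Gpc4, Mfge8 and Agt were also the secreted genes whose TPM was higher in replicate 2, against a TPM that was lower in replicate 2 for 37 of the 44 genes.

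At the lower end, Daam2 had 2972 and 2828 counts, a ratio of -0.26 (-0.34 to -0.19), and Mertk had 1340 and 1286, a ratio of -0.25 (-0.36 to -0.14). Gjb6 had 1574 and 1534 counts, a ratio of -0.23 (-0.33 to -0.13). Slc1a2 had by far the deepest counts, 146105 and 154258, and a ratio of -0.11 (-0.13 to -0.10). Megf10 at -0.14 and Slc4a4 at -0.07 complete the 6 genes with intervals below 0. Glul, with the next deepest counts, had a ratio of 0.03 (0.01 to 0.05) by TMM, which turned to -0.02 (-0.015 before rounding) when counts were scaled to the protein-coding total. By TMM this interval and that of Slc1a2, which acts in the same cycle, did not overlap.

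The genes below 0 were mostly long genes. Of the 12 members that span 100 kb or more of genome, 5 were higher in replicate 2 by TMM, with a median ratio of -0.06, and of the 32 shorter ones 29 were higher, with a median of 0.16. Under spike-in scaling 0 in either set were higher, with medians of -0.52 and -0.30, and on the log2(TPM + 1) scale 1 and 6 were, with medians of -0.32 and -0.07, so the long members had the lower median on each scale. By TMM a split of the same direction showed in all nuclear protein-coding genes whose mean count was 100 or more: 43.6% of 2034 long genes were higher, with a median ratio of -0.03 (-0.025 before rounding), and 63.2% of 9801 shorter genes, with a median of 0.06. Under spike-in scaling the shares were 1.67% of the long and 1.94% of the shorter genes, with medians of -0.49 and -0.41, and on the log2(TPM + 1) scale they were 8.55% and 16.3%, with medians of -0.25 and -0.17. By the counts of the second transcript table, 53.4% of the long genes were higher, so their median turned to 0.01, beside 68.9% and 0.09 for the shorter ones. The limit of 100 kb was chosen after the ratios were seen. Across genes, Spearman's rho of span and ratio was -0.29 over the 44 members and -0.31 over 11835 protein-coding genes, as a description over genes that share the same 2 libraries. Over the members, rho with the ratio was -0.395 for the share of TPM in noncoding transcripts and 0.0748 for mean TPM. Mean TPM had a rho of 0.167 over the protein-coding genes, and the noncoding share was described for members only. The long members below 0 are Slc1a2, Slc4a4, Slc7a11, Chrdl1, Mertk, Megf10 and Daam2, and the long members above 0 are Slc6a11, Slc39a12, Aldh1l1, Gpc4 and Gpc5. The part of gene length or of noncoding transcripts in the ratios of the members was not tested.

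The libraries differed in depth and make-up. They held 29417200 and 35188800 expected counts over all rows, and the 44 genes took 1.06% and 1.02% of them. The abundant cytoplasmic RNA of the signal recognition particle took 24.3% of TPM in replicate 1 and 30.1% in replicate 2, and spike-ins took 0.349% and 0.461% of counts, which bears on every TPM as deposited. Of 10 immediate early genes, which neurons induce on activity, 8 were at least 2-fold higher in replicate 2 (median log2 ratio 1.54 by TMM and 1.08 under spike-in scaling), Fos at 2.01, Arc at 1.64 and Egr2 at 2.25 among them. Summed TPM of 5 red blood cell genes was 866 in replicate 1 and 457 in replicate 2, and that of 8 choroid plexus markers was 77.6 and 11.6, with Ttr at -2.82 in log2 ratio. Their part in the ratios of the astrocyte genes was not tested.

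Markers of the other cell types were present in both libraries, and no marker was listed at 0. Median TPM was 324 ± 22.9 for 10 neuron markers (mean TPM from 150 for Rbfox3 to 1291 for Snap25), 105 ± 15.4 for 10 oligodendrocyte markers, 11.5 ± 1.41 for 8 precursor markers and 19.7 ± 0.255 for 10 microglia markers. It was 11.5 ± 2.00 for 10 endothelial, 6.35 ± 0.417 for 9 mural and 4.48 ± 0.0283 for 8 meningeal fibroblast markers. The median of the 44 astrocyte genes, 27.6 TPM, thus lay below those of the neuron and oligodendrocyte lists and above the vascular and microglial ones. That order is one of lists and not of cell types, since a median depends on the genes chosen. The 25 further astrocyte genes described below had a median of 84.7 TPM, and the 44 genes ranged from 2.69 to 889 TPM. Ependymal markers had a median of 0.898 ± 0.180 TPM, with 3 of 8 expressed, and radial glia and proliferation markers a median of 2.13 ± 0.382, with 5 of 8 expressed.

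The median log2 ratio by TMM was 0.10 for neuron markers (8 of 10 higher), -0.10 for oligodendrocyte markers (3 of 10 higher) and 0.19 for microglia markers (8 of 10 higher). It was 0.04 for endothelial markers, 0.07 for mural markers and 0.00 for precursor markers (0.004 before rounding). The value of the 44 astrocyte genes, 0.13, lay between those of neuron and microglia markers. It did so on the other scales too: under spike-in scaling the medians were -0.37 for neuron markers, -0.33 for the astrocyte genes, -0.28 for microglia markers and -0.56 for oligodendrocyte markers, and on the log2(TPM + 1) scale they were -0.14, -0.11, -0.05 and -0.35. No test of these differences was made, and all lists share the same 2 libraries.

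**Figure D4:**
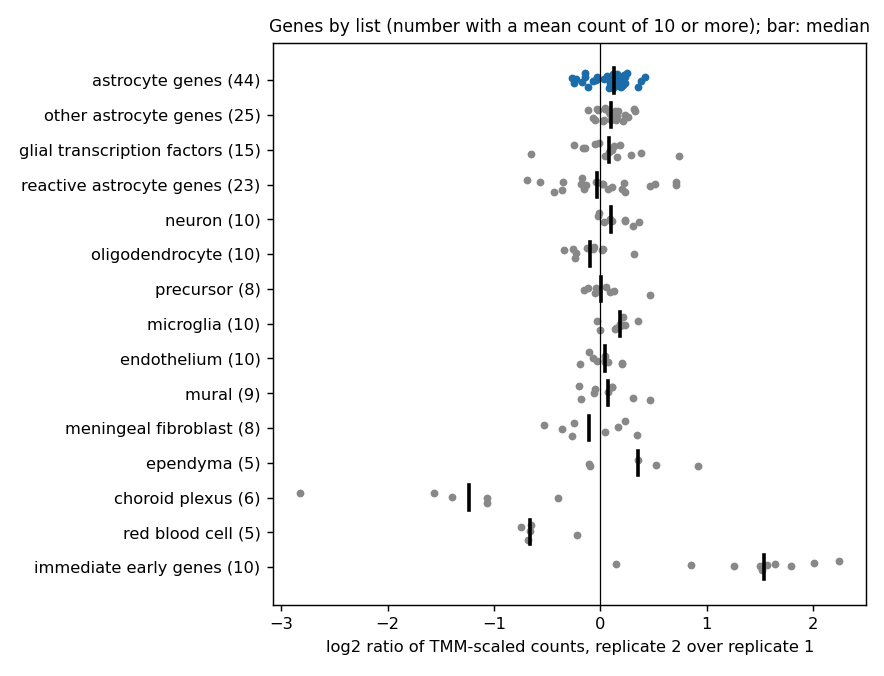
Log2 ratio of TMM-scaled counts (replicate 2 over replicate 1) of the genes of each list with a mean count of at least 10 (points) and the median of each list (bars). Astrocyte genes sit near 0 with a median of 0.13, a direction that turns under spike-in scaling and on the log2(TPM + 1) scale, while immediate early genes, red blood cell genes and choroid plexus markers stand away from 0.

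Other genes of the same pathways were read from fixed lists. Of 25 further astrocyte genes, all 25 were expressed, with a median of 84.7 ± 0.622 TPM and a median log2 ratio of 0.10 by TMM (20 higher, 5 lower, 0 at 1.5-fold), and 0 were higher under spike-in scaling and 3 on the log2(TPM + 1) scale. Cpe, a carboxypeptidase of peptide precursors, was the highest at 956 ± 41.6 TPM, followed by Cst3, cystatin C, at 848 ± 5.72, and Paqr6 was the lowest at 2.78 ± 0.0424. All 15 glial transcription factors were expressed, with a median of 18.3 ± 2.91 TPM, from 160 ± 23.9 for Nfix and 71.7 ± 4.18 for Id2 to 4.30 ± 0.757 for Rfx4. By TMM, Hes5, a Notch target, had a log2 ratio of 0.74 and Zbtb20, a zinc finger repressor, one of -0.65. These 2 of 15 were past 1.5-fold by TMM, beside 3.08% of annotated genes whose mean count was 100 or more. Under spike-in scaling 1 of the 15 was higher in replicate 2, with a median log2 ratio of -0.38. The 1.5-fold count of this list was made by TMM only. Sox9 of the 44 genes, at 9.78 TPM, lay below the median of that list.

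The glutamate-glutamine cycle had 10 genes, 3 of them members, and all 10 were expressed. Glul and Slc1a2 led, and Slc38a5, a glutamine transporter, was the lowest at 1.81 ± 0.106 TPM. The list had 5 genes higher and 5 lower in replicate 2 by TMM, with a median of 0.00 (0.001 before rounding), and 0 genes higher under spike-in scaling or on the log2(TPM + 1) scale. Of 10 glycogen genes all were expressed. Pygb, the brain phosphorylase, stood at 52.2 ± 1.63 TPM, Ugp2 at 32.8 ± 4.18 and Gbe1, the branching enzyme, at 4.88 ± 0.403, so Ppp1r3c lay in the upper part of that list and Phkg1 near its foot.

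Of 9 genes of glycine cleavage and folate metabolism, 7 were expressed. Dld, a subunit shared with other dehydrogenases, led at 46.0 ± 3.83 TPM, ahead of Aldh1l1, and its mitochondrial relative Aldh1l2 was at 0.670 ± 0.0141. All 9 had a log2 ratio above 0 by TMM, from 0.02 to 0.43. So did 59.8% of nuclear protein-coding genes whose mean count was 100 or more. The direction was less uniform on other scales. When counts were scaled to the protein-coding total, 6 of the 9 were above 0, and 7 were by the counts of the second transcript table. Under spike-in scaling 0 were above 0, and on the log2(TPM + 1) scale 1 was. Of 11 genes of phagocytosis and its bridging proteins all were expressed, led by the receptor Tyro3 at 84.2 ± 5.78 TPM and by Mfge8, with Gulp1, an adaptor, at 2.23 ± 1.00. In that list 6 genes were above 0 in TMM ratio and 5 below, and receptors and bridging proteins stood on both sides. The receptors Mertk and Megf10 were below 0, and the receptors Axl (0.28) and Tyro3 (0.12) above it. Of the bridging proteins Mfge8 and Gas6 (0.21) were above 0, and Pros1 (-0.05, from 243 and 269 counts) lay just below. Under spike-in scaling all 11 were below 0.

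The promoters of the astrocyte genes were read from RefSeq (GRCm38.p6, the same assembly as mm10) as the 250 bases upstream of each start site. Of the 44 genes, 36 had an entry, 41 promoters in all, and for 28 of the 36 the leading transcript starts within 50 bases of a RefSeq start. Slc1a2 is far from it, as Slc1a2-202 starts 47779 bases upstream of the RefSeq start, so the RefSeq promoter of Slc1a2 is not the one of its leading transcript. No promoter is shown for Sox9, Slc14a1, Chrdl1, Clu, Aqp4, Megf10, Sparcl1 or Prdx6.

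Promoters of genes used in few cell types are commonly poor in CpG dinucleotides, and those of genes used in all cells are commonly CpG islands. CpG was sparse in the astrocyte promoters. The median of CpG observed over expected, which corrects for the content of C and G, was 0.363 in the 41 promoters and 0.715 in 12903 promoters of 9944 expressed nuclear protein-coding genes, while median GC content was 58.4% and 60.0%. A value of at least 0.6 was held by 29.3% of the astrocyte promoters (12 of 41) and 64.4% of the 12903, which include the 41. The difference was not tested.

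**Figure D5:**
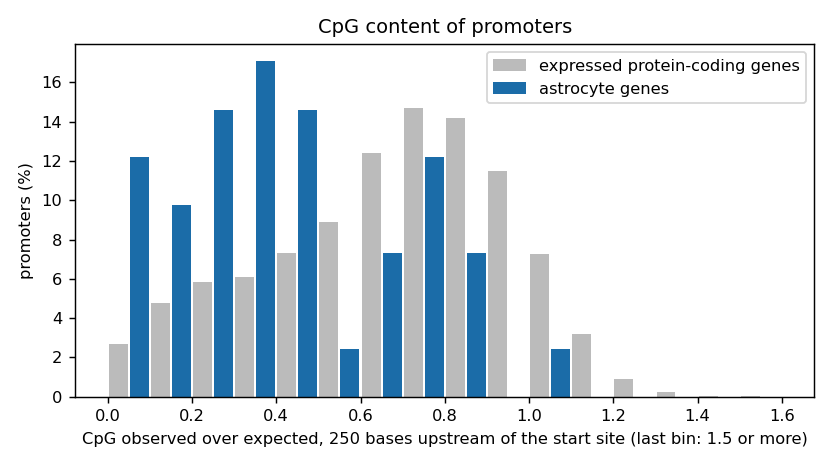
Share (%) of promoters in bins of CpG observed over expected in the 250 bases upstream of the start site, for 41 promoters of astrocyte genes (blue) and 12903 promoters of expressed nuclear protein-coding genes (grey). The blue bars are tallest between 0.2 and 0.5 and the grey ones between 0.6 and 1.0.

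The contrast is shown by 4 promoters, chosen after their CpG content was known: Agt and S100b, which are poor in CpG, and F3 and Slc6a11, which are rich in it. Slc4a4 at 1.07, with 44 CG dinucleotides, Htra1 at 0.857 and Tril at 0.850 had a higher CpG observed over expected than these. Each is upstream sequence alone, 5′ to 3′ on the strand of the gene, in lower case with every CG dinucleotide in capitals. Agt has no CG, and there the capitals mark a TATA box, which starts 30 bases before the RefSeq start. Positions are GRCm38.p6: Agt chr8:124569707-124569956 (minus), S100b chr10:76253586-76253835 (plus), F3 chr3:121723287-121723536 (plus) and Slc6a11 chr6:114130991-114131240 (plus).
Agt: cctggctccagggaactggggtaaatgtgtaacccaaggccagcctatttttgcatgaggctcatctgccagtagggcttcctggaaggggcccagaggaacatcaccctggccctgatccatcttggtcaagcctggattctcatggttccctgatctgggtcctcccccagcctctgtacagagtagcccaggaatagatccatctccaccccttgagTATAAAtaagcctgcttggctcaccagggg
S100b: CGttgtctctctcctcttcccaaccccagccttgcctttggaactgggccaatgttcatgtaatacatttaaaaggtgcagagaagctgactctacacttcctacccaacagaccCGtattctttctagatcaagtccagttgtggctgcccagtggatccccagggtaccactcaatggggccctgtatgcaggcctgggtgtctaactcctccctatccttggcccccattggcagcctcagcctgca
F3: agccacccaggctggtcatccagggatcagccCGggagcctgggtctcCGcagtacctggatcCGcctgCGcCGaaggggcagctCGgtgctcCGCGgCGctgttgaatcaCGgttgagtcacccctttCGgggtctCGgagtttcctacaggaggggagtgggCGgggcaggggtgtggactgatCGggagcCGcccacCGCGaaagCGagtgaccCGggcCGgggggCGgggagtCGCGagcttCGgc
Slc6a11: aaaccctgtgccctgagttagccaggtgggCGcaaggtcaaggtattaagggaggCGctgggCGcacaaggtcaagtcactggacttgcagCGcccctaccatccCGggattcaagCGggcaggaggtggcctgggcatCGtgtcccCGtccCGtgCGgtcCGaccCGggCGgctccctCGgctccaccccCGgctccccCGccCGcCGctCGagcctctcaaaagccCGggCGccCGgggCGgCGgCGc

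These 4 hold 0, 2, 24 and 25 CG dinucleotides in that order, with CpG observed over expected of 0.00, 0.117, 0.803 and 0.791. In TPM, Agt stood at 4.11, S100b at 70.1, F3 at 21.005 and Slc6a11 at 36.1, so both the lowest and the highest level of the 4 belong to CpG-poor promoters. The promoters were also searched on both strands for short motifs. A TATA box (TATAAA) was in 12.2% of the 41 promoters and 12.4% of 32851 mouse promoters of the same length, and the genes that hold one are Agt, Gpc5, Slc1a3, Slc39a12 and Vim. A CCAAT box (CCAAT) was in 39.0% against 33.8%, and a GC box (GGGCGG) in 46.3% against 32.7%.

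Of motifs of factors known in astrocytes, the STAT palindrome (TTCNNNGAA) was in 12.2% against 7.02%, in Acsbg1, Agt, Ntsr2, Slc1a3 and Slc7a11. The core of SOX sites (ACAAAG) was in 7.32% against 16.5%, in Phkg1, Slc6a9 and Slc7a11. The palindrome of nuclear factor I was in 0 of the 41 and in 0.0365% of all. Overlaps between motifs were allowed, and a match describes letters in this window and nothing of a factor's binding.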

How the data were processed

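Total RNA-seq of left cerebral cortex was deposited for 2 mice in 1 group, from 300 ng of RNA each, as stranded, ribosomal-reduced libraries with ERCC spike-ins, per the labels. Values refer to mm10 (per the labels) and GENCODE M21 (per the deposited notes). The sources used here give no aligner, version or strand setting. Per the file headers, the authors' gene table gives expected counts, TPM and FPKM, the first transcript table also the percent of a gene's abundance in each transcript, and the second transcript table estimated counts and TPM. TPM was deposited over all rows, so abundant short RNA lowers that of other genes. Reads were set against a C57BL/6J reference, and loss of CAST/EiJ reads was not tested.

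Expected counts were rounded to whole numbers and scaled with edgeR 4.0.16 (R 4.3.3, TMM over 55536 annotated genes, prior count 2), or with DESeq2 1.42.0 size factors as an alternative. Intervals are 95% Clopper-Pearson intervals, for counting error only, since the tables carry no molecular identifiers. With 1 library per mouse no test was run and no p-value is given. Rows without an annotated gene were left out. Symbols and coordinates came from the annotation. The step that gives the TMM ratios was tested on simulated counts, and the other steps were not. Python 3.11.15 with pandas 2.3.3 and matplotlib 3.10.9 was used.

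The members and lists were chosen with earlier results of these data known. Every member is named. Full values are given for the 3 highest and the lowest of each role, members of pairs, members whose leading transcript differed between libraries or tables or was noncoding, and members with divided counts. Of pathway lists the highest 2 and the lowest are named. Cell type lists are given by medians, and of their genes a few are named. Count totals were 29417200 and 35188800. One pair and one sequence are not reported here.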

Additional observations from a re-analysis of the deposited data

How the results depend on the processing

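The median TPM of the 44 genes was 48.5 in the second transcript table, 62.2 when TPM was rescaled over nuclear protein-coding genes and 18.6 in FPKM, and it ran from 26.6 to 28.5 with either mouse left out. The rescaling changes the total that TPM is set against. All 44 genes were expressed in the second table, and 42 at a threshold of 5 TPM. No gene was 2-fold apart under DESeq2 size factors, spike-in scaling, the protein-coding total, the second table, log2(TPM + 1) or other count minimums. At 1.5-fold, 6 genes passed under spike-in scaling (Gjb6, Phkg1, Chrdl1, Mertk, Megf10 and Daam2), beside 21.0% of annotated genes under the same scaling, and 0 under the other settings. Of the 44 genes, 0 were higher in replicate 2 under spike-in scaling and 7 on the log2(TPM + 1) scale, with median log2 ratios of -0.33 and -0.11. Under the other 3 settings 33 or 34 were higher, with medians from 0.09 to 0.18. Of the 12 pairs, 11 had a TPM ratio above 1 and 9 had one by expected counts. No paired analysis was possible because the 2 libraries form 1 group. Leaving out a mouse gives no ratio. With counts from 132 upward, depth limits the ratios of Agt, Slc14a1, Fabp7 and Phkg1 most.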

Other observations

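Genes of the reactive state, which astrocytes turn on after injury or inflammation, were mostly near the bottom of the range. Of 31 such genes 15 were expressed, beside 12754 of 22015 nuclear protein-coding genes, so that count alone does not set the list apart. The median of the 31 was 1.39 ± 0.0707 TPM (SD, n = 2). The highest were Gfap and Vim, which are counted among the 44 genes and are made by astrocytes at rest as well. Lcn2, a secreted lipocalin, was at 0.420 and 0.370 TPM. C3, a complement protein, was at 0.210 and 0.300, and Slc10a6 was the lowest of the list at 0.0500 and 0.0600. Serpina3n, a protease inhibitor, was at 5.66 and 4.25 TPM, and Cd44, a hyaluronan receptor, at 1.44 and 1.68. Several genes of the list are also made by vessel and immune cells. Among the 23 with a mean count of at least 10, 11 were higher in replicate 2 by TMM and 12 lower, with a median log2 ratio of -0.03, and under spike-in scaling 3 were higher. None of the 9 with a mean count of at least 100 was 1.5-fold apart by TMM, beside 3.08% of annotated genes. For 9 genes a count of 0 is near that share.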
